A study of Mus musculus with 18 samples.

Results

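The 34 genes described here encode the steps of cholesterol synthesis, uptake and export. The pathway was taken up with earlier results of these data known, and its members are listed by name, by a rule that uses no measured value, as rows of the deposited count table whose Ensembl identifiers map to the 34 symbols, out of 55421 rows in all. Striata of 18 mice aged 12 to 14 months, all labelled as strain C57BL/6, were profiled by bulk RNA-seq. There were 5 WT mice, 5 zQ175 mice, 3 CK2a'(+/-) mice and 5 zQ175:CK2a'(+/-) mice. zQ175 is a model of Huntington's disease in which an expanded repeat is knocked in to the full-length huntingtin gene, carried here on 1 allele. CK2a'(+/-) mice carry 1 deleted allele of the gene for the kinase subunit CK2a', and per the study's methods that line came from a 129/SvEv-C57BL/6J background and was bred for many generations with WT and zQ175 mice, so that the mice used had the C57BL/6J background. The zQ175:CK2a'(+/-) mice carry both changes. Per the study's methods the ratio of females to males differed between genotypes, and the labels do not give the sex of each mouse.

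Cholesterol in the brain is made locally, since lipoproteins of the blood do not cross into it. Acetyl units are built up through the mevalonate pathway to squalene and then to sterols, and the transcription factor SREBP2, released from the endoplasmic reticulum by the escort protein SCAP when sterols are low, switches the enzymes on, while the INSIG proteins hold it back. Astrocytes load cholesterol onto apolipoprotein E with the help of ABC transporters, neurons and other cells take the particles up through LRP1, NPC1 and NPC2 carry the sterol out of the lysosome, and neurons dispose of the excess by hydroxylation through CYP46A1. In the striatum, oligodendrocytes use large amounts of cholesterol for myelin.

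Each library held between 13612381 and 22702547 counts assigned to genes. Levels are CPM, counts scaled to a common library total, after TMM scaling of the libraries, and differences are log2 fold changes from edgeR's quasi-likelihood test over the 20914 genes that passed the filter on low counts, with p-values adjusted over all of them and called below 0.1. Each p-value sets a difference between genotypes against the spread between these mice within genotypes. All 34 genes passed the filter. Csnk2a2, which encodes CK2a', ranged from 29.4 to 37.5 CPM in the 10 mice with both alleles and from 14.7 to 19.9 CPM in the 8 mice labelled CK2a'(+/-) or zQ175:CK2a'(+/-), so every library matched its CK2a' label. Within a genotype, however, the libraries were not alike. Choroid plexus markers summed to 2074 CPM in WT replicate 1, 1723 CPM in WT replicate 3, 975 CPM in CK2a'(+/-) replicate 1 and 3083 CPM in zQ175:CK2a'(+/-) replicate 2, against 11.5 to 21.6 CPM in the other 14 libraries. Cortical excitatory neuron markers summed to 330 CPM in zQ175 replicate 5, against 60.7 to 93.8 CPM in the other zQ175 mice and 23.3 to 55.5 CPM in WT mice, so that all zQ175 mice lay above all WT mice. They were 24.5 to 61.4 CPM in CK2a'(+/-) and 24.4 to 54.3 CPM in zQ175:CK2a'(+/-) mice. Because the tissue was not sorted, fewer cells of a type and less RNA per cell cannot be told apart.

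Per kilobase of exon, Apoe was by far the most abundant of the 34 transcripts, with a mean of 630.3 CPM per kilobase over the 18 mice. The endocytic receptor Lrp1 followed at 38.5, the cholesterol 24-hydroxylase Cyp46a1 at 32.8, the transcription factor gene Srebf2 at 19.3 and Hmgcs1, an early enzyme of the mevalonate pathway, at 18.2 CPM per kilobase. The lowest mouse for Apoe lay above the highest mouse for Lrp1, whereas the ranges of Lrp1 and Cyp46a1 overlapped, as did those of Srebf2 and Hmgcs1. At the other end were Idi1 at 1.40, the oxysterol receptor Nr1h3 at 1.02 and Fdps, the farnesyl diphosphate synthase, at 0.559 CPM per kilobase. The low value of Fdps rests on 7 to 93 counts per library. Of its 50-base transcript windows 86.4% also occur in other annotated genes, 1 of which overlaps Fdps on the same strand, so reads could have been lost from it, since only uniquely aligned reads were kept. The corresponding share was 45.9% for Acat2, 30.7% for Fdft1 and 30.5% for Idi1, in part with genes elsewhere. It was 13.6% for Hmgcs1 and 13.1% for Scap, in each with 1 gene that overlaps at the same place on the opposite strand, so that the strand setting of the counting, which is not given in the sources used here, bears on these values and not the uniqueness of the reads.

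**Figure D1:**
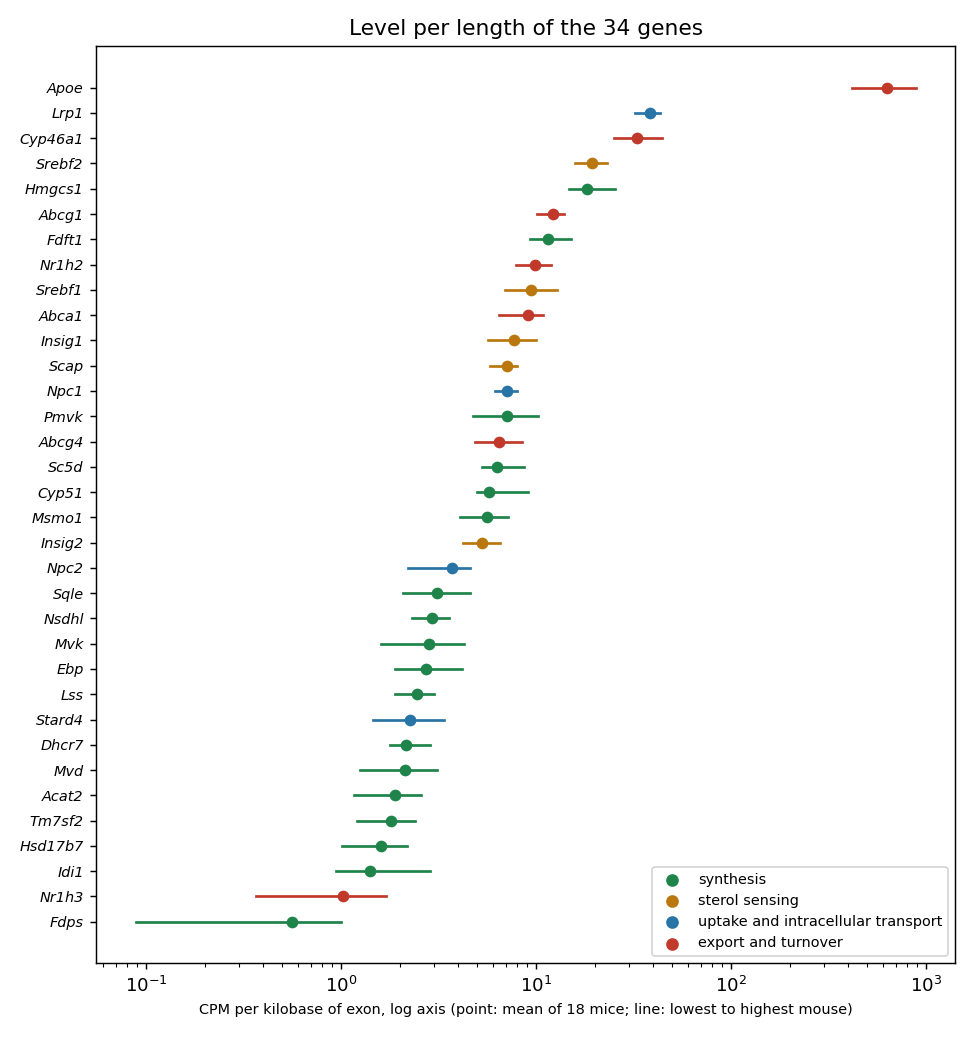
Level of each of the 34 genes in CPM per kilobase of exon on a log axis, where the point is the mean of 18 mice, the line runs from the lowest to the highest mouse and the colour gives the role. Apoe, at a mean of 630.3, stands above all others, and Fdps, at 0.559, is the lowest.

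The question set by the design was whether the zQ175 allele changes these transcripts and whether the loss of 1 CK2a' allele changes that difference. In zQ175 against WT mice 2 of the 34 genes were called, Apoe and Npc2, both lower, where 1.1% of all genes tested were called and 0.712% were called lower; 6 had an unadjusted p under 0.05, against 13.9% of all genes. In the test of the zQ175 allele pooled over CK2a' genotype, which averages the difference between mice with and without the allele over both CK2a' genotypes, 2 genes were called, Apoe and Cyp46a1, again both lower, with 4.9% of all genes called and 2.78% called lower, and 6 had an unadjusted p under 0.05 against 16.2%. None of the 34 was called in zQ175:CK2a'(+/-) against WT (0.0143% of all genes called, unadjusted p under 0.05 for 3 of the 34 and 9.13% of all genes, DESeq2 called 1). None was called in zQ175 against zQ175:CK2a'(+/-) (0.0143% of all genes, unadjusted p under 0.05 for 6 and 6.27%, DESeq2 called 1) or in CK2a'(+/-) against WT (0.0143%, unadjusted p under 0.05 for 1 and 4.48%, DESeq2 called 0). The same held for zQ175:CK2a'(+/-) against CK2a'(+/-) (0.593%, unadjusted p under 0.05 for 6 and 9.19%, DESeq2 called 0) and for the interaction of both changes (0.00478%, unadjusted p under 0.05 for 3 and 5.39%, DESeq2 called 0). These comparisons share mice and are not independent of each other.

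**Figure D2:**
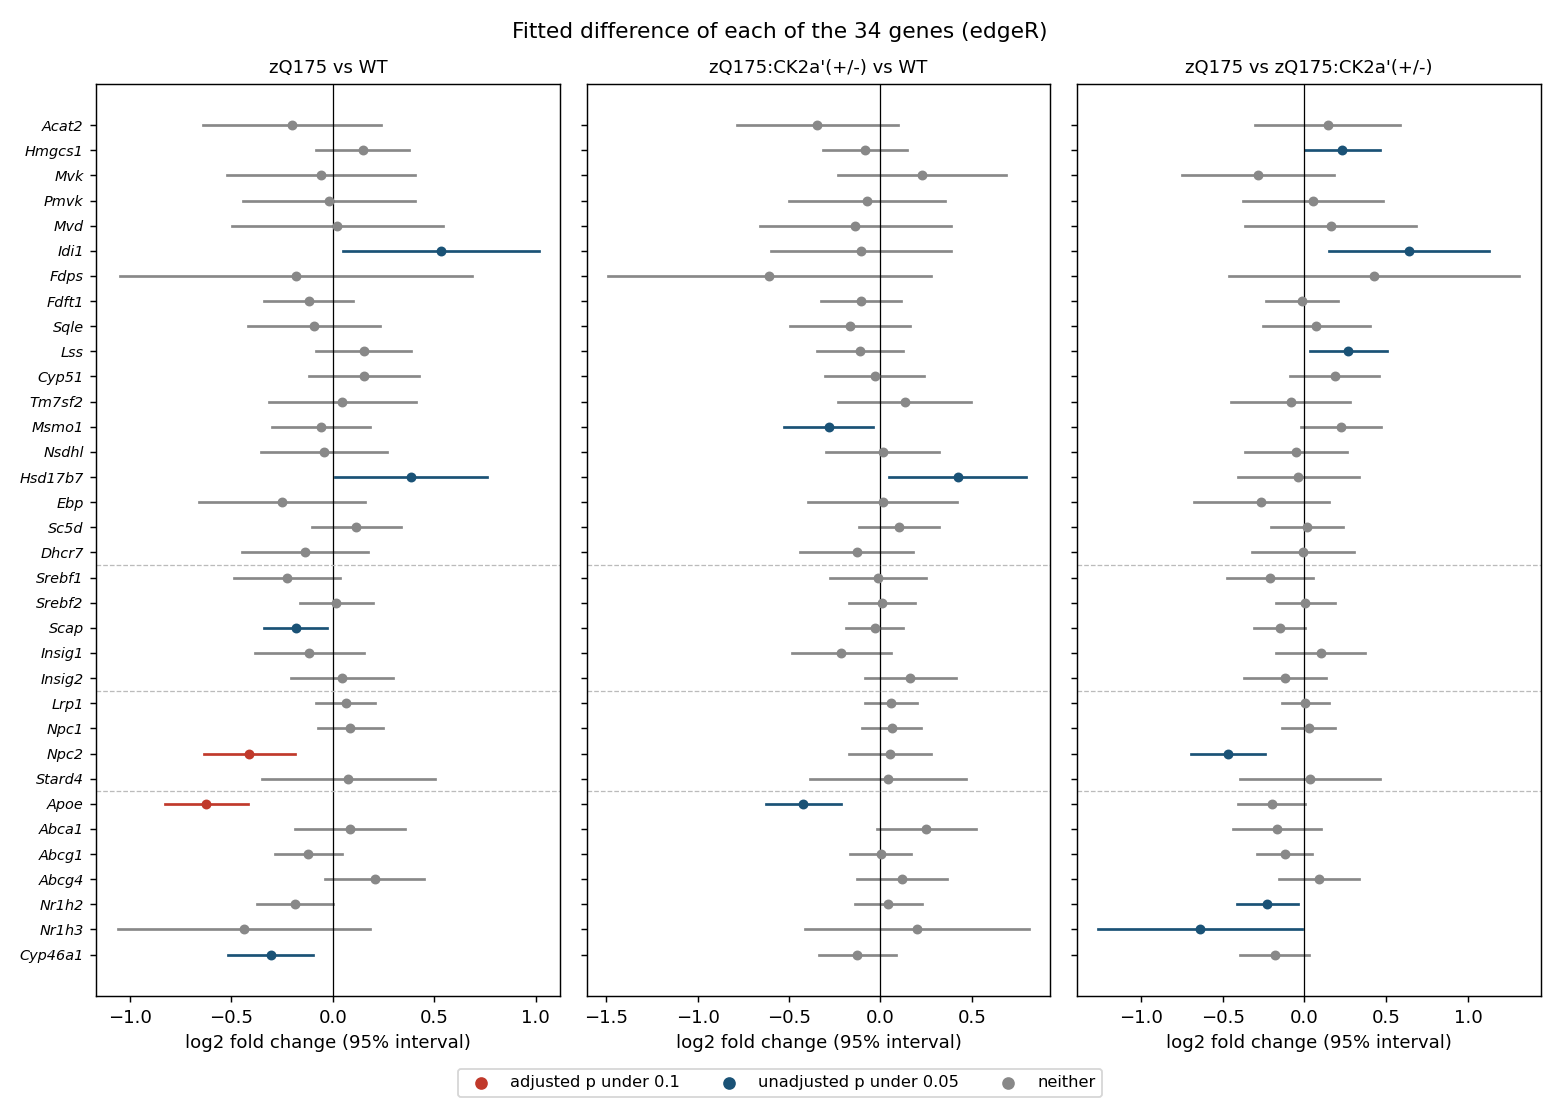
Log2 fold change with its 95% interval for each of the 34 genes in 3 comparisons, by edgeR, with dashed lines between the roles (synthesis, sterol sensing, uptake and transport, export and turnover from top to bottom). Red marks an adjusted p under 0.1, blue an unadjusted p under 0.05 and grey neither; Npc2 and Apoe are red in zQ175 vs WT and no gene is red in the others.

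The 18 synthesis genes run from Acat2 and Hmgcs1 through the mevalonate and isoprenoid steps (Mvk, Pmvk, Mvd, Idi1, Fdps), squalene formation and epoxidation (Fdft1, Sqle) and ring closure by Lss to the sterol enzymes Cyp51, Tm7sf2, Msmo1, Nsdhl, Hsd17b7, Ebp, Sc5d and Dhcr7. None of the 18 was called in any of the 7 comparisons by edgeR or by DESeq2, and at most 3 had an unadjusted p under 0.05 in a comparison. By estimate 8 lay above WT and 10 below it in zQ175 mice, where 50.6% of all genes tested lay above, and the median of the 18 estimates was -0.03 on the log2 scale against 0.00 over all genes. The 95% interval of 13 of the 18 lay within 1.5-fold in either direction. The intervals of the other 5 reached past that limit in at least 1 direction, so a change of that size was not excluded with these mice. The interval of Fdps, from -1.05 to 0.68 on the log2 scale, reached past it in both directions. In zQ175:CK2a'(+/-) against WT mice 6 lay above and 12 below (48.5% of all genes above), with a median of -0.09, and in zQ175 against zQ175:CK2a'(+/-) 11 lay above and 7 below (51.1% of all genes above), with a median of 0.06.

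Promoter sequence was not used in listing the genes. RefSeq (GRCm38.p6) windows of 250 bases before to 50 after the start site were found for 27 of the 34 genes, 38 windows in all, including 15 of the 18 synthesis genes. The pentamer CCAAT, the core of the site bound by the trimeric factor NF-Y, occurred on either strand in windows of 14 of those 15 genes, Acat2 being the exception, and in 20 of the 27 genes (74.1%), against 41.1% of the 27025 genes in the whole table. By window it was in 14 of the 18 of the synthesis genes (77.8%) and in 21 of all 38 (55.3%), against 37.4% of 32851 windows. These shares are a description, with no test. The sterol regulatory element as spelled TCACNCCAC, the type of site bound by SREBP, was found in 1 gene, Hmgcs1, and in 1.24% of all windows. The palindrome CACGTG was in 6 genes (7 windows, 18.4%, against 7.15% of all windows), and the liver X receptor element, searched as a pair of AGGTCA copies with 4 bases between them, was in none (0.02% of all windows). Both strands were searched each time. The stretches that follow, written on the strand of the gene (plus for Hmgcs1, Idi1 and Lss, minus for Hsd17b7 and Msmo1), show the Hmgcs1 element and a CCAAT box of the synthesis genes described next, with the motif in capitals (ATTGG where the box lies on the opposite strand). The stretches of Idi1 and Msmo1 lie upstream of a RefSeq start but inside the gene spans of the deposited table.
Hmgcs1, chr13:119690199-119690237: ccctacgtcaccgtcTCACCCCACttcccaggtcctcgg
Idi1, chr13:8885546-8885580: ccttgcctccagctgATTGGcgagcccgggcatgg
Lss, chr10:76531528-76531562: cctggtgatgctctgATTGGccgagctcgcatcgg
Hsd17b7, chr1:169969259-169969293: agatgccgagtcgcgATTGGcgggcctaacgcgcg
Msmo1, chr8:64733614-64733648: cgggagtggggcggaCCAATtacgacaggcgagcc
The box was thus common to nearly all enzymes with a window, while their estimates in zQ175 mice fell on both sides of 0.

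Idi1, the isopentenyl diphosphate isomerase, had the highest estimate of the group in zQ175 mice. It measured 3.44, 3.69, 5.11, 6.62 and 3.34 CPM in WT replicates 1 to 5 and 9.98, 5.85, 4.30, 5.47 and 6.40 CPM in zQ175 replicates 1 to 5. Levels were 4.44, 4.20 and 5.14 CPM in the 3 CK2a'(+/-) mice and 4.28, 4.16, 3.67, 3.29 and 5.23 CPM in the zQ175:CK2a'(+/-) mice. The zQ175 mice thus reached highest but overlapped with every other genotype. The log2 fold change of Idi1 was 0.53 ± 0.23 (SE) in zQ175 against WT (edgeR, unadjusted p = 0.0327, adjusted p = 0.315) and 0.64 ± 0.23 in zQ175 against zQ175:CK2a'(+/-) (adjusted p = 0.643). Without zQ175 replicate 1 the first estimate for Idi1 was 0.31 (adjusted p = 0.609) and the second 0.41 (adjusted p = 0.892).

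Hsd17b7, a 3-ketosteroid reductase of the late pathway, was the other enzyme with an unadjusted p under 0.05 in zQ175 mice. Its levels were 5.13, 6.81, 6.26, 7.06 and 8.66 CPM in WT mice, 8.34, 7.01, 8.67, 9.30 and 11.1 CPM in zQ175 mice, 9.70, 9.06 and 5.21 CPM in CK2a'(+/-) mice and 9.12, 7.75, 10.2, 8.23 and 10.3 CPM in zQ175:CK2a'(+/-) mice. Relative to WT, Hsd17b7 differed on the log2 scale by 0.39 ± 0.18 in zQ175 (edgeR, adjusted p = 0.346) and 0.42 ± 0.18 in zQ175:CK2a'(+/-) (adjusted p = 0.488), and WT replicate 5 lay within the range of both. Without the 4 libraries rich in choroid plexus markers the first estimate for Hsd17b7 was 0.24 (adjusted p = 0.793).

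Lss, which closes the sterol rings, measured 28.6, 25.7, 22.8, 25.6 and 28.7 CPM in WT mice and 32.5, 22.0, 27.9, 32.2 and 31.7 CPM in zQ175 mice. It was at 24.7, 28.9 and 24.2 CPM in CK2a'(+/-) mice and at 25.0, 26.3, 24.0, 25.8 and 20.4 CPM in zQ175:CK2a'(+/-) mice. Of the zQ175 mice 4 were above every zQ175:CK2a'(+/-) mouse, and replicate 2 was below every WT mouse. The log2 fold change between these groups was 0.27 ± 0.11 (edgeR, unadjusted p = 0.0277, adjusted p = 0.721). Hmgcs1 gave 0.23 ± 0.11 in the same comparison (edgeR, unadjusted p = 0.0496, adjusted p = 0.794), which was 0.13 (adjusted p = 0.938) without zQ175 replicate 1. Hmgcs1, Idi1 and Lss made up the synthesis genes with an unadjusted p under 0.05 there.

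Msmo1, the C4-methylsterol oxidase, and Sqle are named after their values were seen, as enzymes whose groups did not overlap in 1 comparison each. Msmo1 ranged from 28.2 to 43.9 CPM in WT, from 29.2 to 40.4 CPM in zQ175, from 36.3 to 42.7 CPM in CK2a'(+/-) and from 25.0 to 33.0 CPM in zQ175:CK2a'(+/-) mice. The zQ175:CK2a'(+/-) mice thus all lay below the CK2a'(+/-) mice (log2 fold change -0.38 ± 0.13, edgeR adjusted p = 0.329). In that comparison 5 of the 34 genes did not overlap, Msmo1, Insig1 and Cyp46a1 lower and Lrp1 and Nr1h2 higher, against 8.34% of all genes. Sqle, the squalene epoxidase, ranged from 13.2 to 16.6 CPM in CK2a'(+/-) mice and from 16.7 to 22.0 CPM in WT mice without overlap (log2 fold change -0.33, edgeR adjusted p = 0.999), where 3.2% of all genes did not overlap between those groups of 3 and 5.

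For the synthesis genes 1 mouse stood out. zQ175 replicate 1 had the highest level of all 18 mice for 7 of the 18 synthesis genes (Hmgcs1, Idi1, Sqle, Lss, Cyp51, Tm7sf2 and Sc5d), whereas no other library was highest for more than 3. The same mouse had the lowest Apoe level of the series. It also had the lowest sums of oligodendrocyte (3827 CPM), striatal projection neuron (1460 CPM) and microglia markers (175 CPM). What part these had in its sterol enzymes was not tested.

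**Figure D3:**
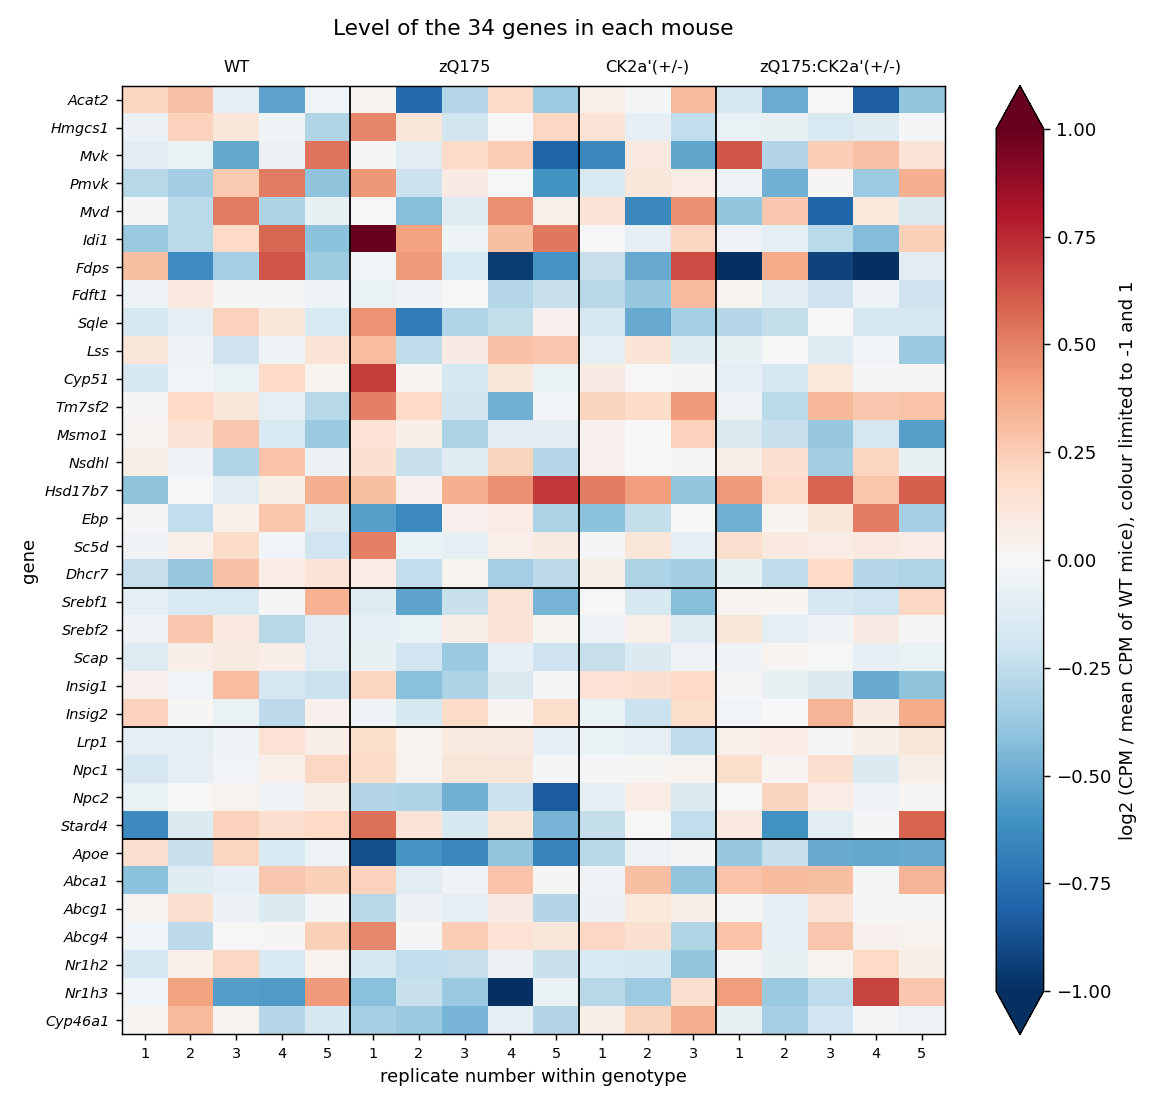
Log2 ratio of each gene's CPM to the mean of the WT mice, for 34 genes (rows, with lines between the roles) in 18 mice (columns, by genotype and replicate), red above and blue below. The Apoe row is blue in all 10 mice with the zQ175 allele, the Npc2 row is bluer in the 5 zQ175 mice than in any other mouse, and zQ175 replicate 1 is the highest of the 18 mice in 7 of the 18 synthesis rows.

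The 5 sterol sensing genes showed no call. Srebf2, the factor that drives the synthesis genes, measured 135, 167, 148, 114 and 128 CPM in WT mice and 130.5, 132, 145, 151 and 141 CPM in zQ175 mice, with 133, 144 and 126 CPM in CK2a'(+/-) and 150.0, 129, 135, 147 and 137 CPM in zQ175:CK2a'(+/-) mice. All zQ175 values of Srebf2 fell within the WT range, with a log2 fold change of 0.02 and a 95% interval from -0.16 to 0.20. Its paralog Srebf1, better known for fatty acid genes, was at 52.9, 50.8, 50.9, 55.9 and 72.1 CPM in WT and at 51.7, 39.2, 48.3, 61.7 and 40.9 CPM in zQ175 mice. It was at 56.3, 50.7 and 42.0 CPM in CK2a'(+/-) and at 57.8, 57.4, 50.5, 49.3 and 65.4 CPM in zQ175:CK2a'(+/-) mice. The estimate for Srebf1 in zQ175 against WT was -0.23 ± 0.13 (edgeR, adjusted p = 0.441), with overlapping groups, and -0.12 (adjusted p = 0.72) without WT replicate 5, the highest of the 18 mice.

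Scap, the sterol-sensing escort of both factors, was the member of this group with an unadjusted p under 0.05 in zQ175 mice. Its levels were 51.3, 58.3, 59.7, 58.6 and 52.1 CPM in WT, 53.3, 48.7, 43.2, 52.9 and 48.4 CPM in zQ175, 47.7, 50.8 and 54.7 CPM in CK2a'(+/-) and 54.7, 57.1, 55.9, 52.9 and 53.4 CPM in zQ175:CK2a'(+/-) mice. Against WT the zQ175 mice differed by -0.18 ± 0.07 (edgeR, adjusted p = 0.281), and the interaction term was 0.28 ± 0.11 (adjusted p = 0.916). Insig1, itself a target of SREBP, ranged from 27.6 to 28.6 CPM in the CK2a'(+/-) mice and from 17.6 to 24.7 CPM in the zQ175:CK2a'(+/-) mice. Insig1 was named after its values were seen, since these groups did not overlap (-0.38 ± 0.15, edgeR adjusted p = 0.396). Insig2 stayed within 1.5-fold by its interval in the 3 comparisons of zQ175, zQ175:CK2a'(+/-) and WT mice.

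Among the 4 genes of uptake and intracellular transport, Npc2 was called and the other 3 were not. Npc2 is the small soluble protein of the lysosome that binds cholesterol and hands it to the membrane protein NPC1. Its level was 20.5, 21.4, 21.9, 21.0 and 22.4 CPM in WT replicates 1 to 5 and 17.5, 17.3, 15.4, 18.5 and 12.0 CPM in zQ175 replicates 1 to 5. In CK2a'(+/-) mice it was 20.2, 22.6 and 19.4 CPM, and in zQ175:CK2a'(+/-) mice 21.3, 25.1, 22.5, 21.0 and 21.6 CPM. Every zQ175 mouse lay below every mouse of the other 3 genotypes, and the zQ175:CK2a'(+/-) mice overlapped with both control genotypes.

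The log2 fold change of Npc2 in zQ175 against WT was -0.41 ± 0.11, a level 0.752 times that of WT (edgeR, adjusted p = 0.0999). That p lies just under the threshold. Npc2 stayed called in 3 of the 18 fits that leave out 1 mouse, with estimates from -0.47 to -0.32, and in 2 of 9 other settings. Against the zQ175:CK2a'(+/-) mice the zQ175 mice differed by -0.47 ± 0.11 (edgeR, unadjusted p = 0.000329, adjusted p = 0.383, DESeq2 adjusted p = 0.0745), and the zQ175:CK2a'(+/-) mice differed from WT by 0.06 ± 0.11 (adjusted p = 0.934). The interaction, which tests whether the zQ175 difference depends on CK2a' genotype, was 0.51 ± 0.17 for Npc2 (edgeR, unadjusted p = 0.00537, adjusted p = 0.832) and so did not pass over all genes. No overlap was seen for 2.44% of all genes in zQ175 against WT and for 1.14% in zQ175 against zQ175:CK2a'(+/-). The lowest value, 12.0 CPM, belonged to zQ175 replicate 5, the library rich in cortical markers. Without it the difference from WT was -0.32 (adjusted p = 0.18) and from zQ175:CK2a'(+/-) -0.38 (adjusted p = 0.594), and the remaining zQ175 mice still lay below all others.

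Npc2 lies on the minus strand of chromosome 12, and its RefSeq promoter is shown because Npc2 was called and because it holds 2 CCAAT boxes, in capitals, the nearer with its first base at -6 from the RefSeq start site. That start lies 40 bases inside the deposited gene span, and the nearer box is also inside it.
Npc2, chr12:84773113-84773362: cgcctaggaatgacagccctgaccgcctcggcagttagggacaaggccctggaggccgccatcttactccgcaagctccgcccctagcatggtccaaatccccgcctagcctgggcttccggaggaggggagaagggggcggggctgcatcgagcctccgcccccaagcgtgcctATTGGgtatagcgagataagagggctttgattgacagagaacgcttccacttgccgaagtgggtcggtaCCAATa

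Npc1, its partner in the lysosomal membrane, did not follow Npc2. It measured 69.5, 73.6, 76.7, 80.7 and 90.1 CPM in WT mice and 88.9, 79.9, 84.9, 84.3 and 77.1 CPM in zQ175 mice, with 77.2, 78.9 and 79.9 CPM in CK2a'(+/-) and 88.2, 79.8, 87.1, 71.0 and 81.6 CPM in zQ175:CK2a'(+/-) mice. The log2 fold change of Npc1 in zQ175 against WT was 0.09 ± 0.08, with a 95% interval from -0.07 to 0.25. Leaving out 1 mouse gave 0.033 (without WT replicate 1) to 0.14 (without WT replicate 5) for Npc1, and leaving out the 4 libraries rich in choroid plexus markers 0.026. Exons of Npc1 overlap those of Rmc1 on the other strand, as those of Fdft1 do with Ctsb, Cyp51 with Akap9 and Srebf1 with Rai1, and the strand setting bears on their values as well. Lrp1, the receptor that takes up apolipoprotein E particles, ranged from 631 to 749 CPM in WT, 638 to 766 CPM in zQ175, 568 to 645 CPM in CK2a'(+/-) and 667 to 734 CPM in zQ175:CK2a'(+/-) mice. The last pair of groups did not overlap (0.19 ± 0.08, edgeR adjusted p = 0.443). Stard4, a cytosolic sterol carrier, ranged from 8.12 to 18.8 CPM over the 18 mice, with its lowest value in WT replicate 1 and its highest in zQ175:CK2a'(+/-) replicate 5.

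**Figure D4:**
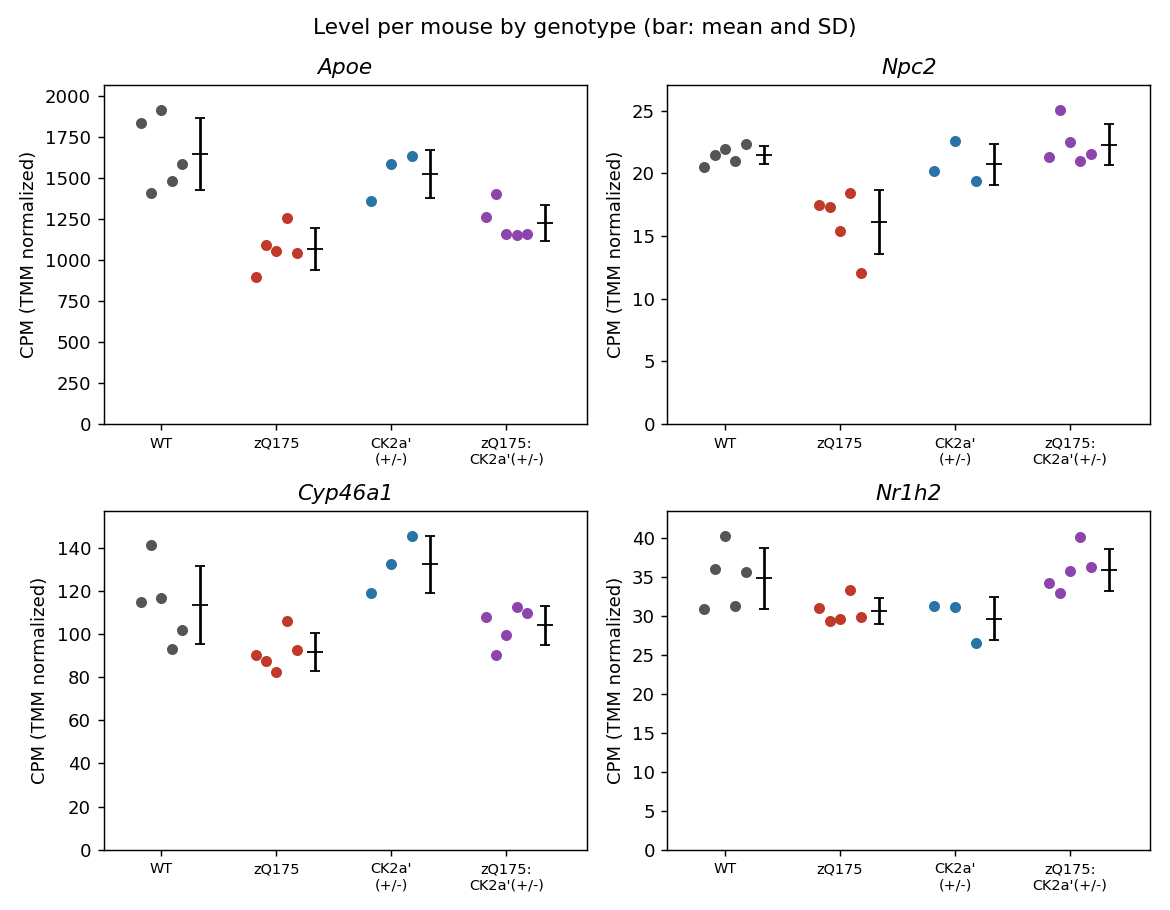
Level in CPM of Apoe, Npc2, Cyp46a1 and Nr1h2 in each mouse by genotype (points, replicates 1 to n from left to right) with the mean and SD of each genotype. The 5 zQ175 mice lie below all WT mice for Apoe and Npc2, and the zQ175:CK2a'(+/-) mice lie below all WT mice for Apoe (1152 to 1402 CPM) but not for Npc2 (21.0 to 25.1 CPM).

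Of the 7 genes of export and turnover, edgeR called Apoe lower in zQ175 against WT and in the pooled test. Cyp46a1 was called lower by edgeR in the pooled test only. The 2 genes called there out of all 34 are a share near the 4.9% of all genes called. Apoe encodes the main apolipoprotein of the brain, made mostly by astrocytes. It was at 1834, 1408, 1912, 1479 and 1584 CPM in WT replicates 1 to 5 and at 896, 1091, 1052, 1253 and 1043 CPM in zQ175 replicates 1 to 5. The CK2a'(+/-) mice had 1359, 1585 and 1630.4 CPM and the zQ175:CK2a'(+/-) mice 1262, 1402, 1157, 1152 and 1157 CPM. All zQ175 mice lay below all mice without the allele. The zQ175:CK2a'(+/-) mice also lay below all WT mice, which 1.84% of all genes did in either direction, and replicate 2 of them was above CK2a'(+/-) replicate 1.

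In zQ175 against WT mice Apoe fell by 0.62 ± 0.10 on the log2 scale, to 0.649 times the WT level (edgeR, adjusted p = 0.0442). Pooled over CK2a' genotype the zQ175 allele gave a difference in Apoe of -0.47 ± 0.07 (edgeR, adjusted p = 0.00224). In zQ175:CK2a'(+/-) against WT the estimate was -0.42 ± 0.10 (edgeR, adjusted p = 0.204, DESeq2 adjusted p = 0.0247), and in zQ175 against zQ175:CK2a'(+/-) it was -0.20 ± 0.10 with a 95% interval from -0.41 to 0.00 (adjusted p = 0.814). The interaction for Apoe was 0.31 ± 0.15 (edgeR, unadjusted p = 0.0534, adjusted p = 0.916), and 0.038 (adjusted p = 0.999) without the 4 libraries rich in choroid plexus markers. The 2 highest Apoe values of the series came from WT replicates 1 and 3, which are rich in choroid plexus markers, as is the highest zQ175:CK2a'(+/-) mouse. The remaining library rich in them, CK2a'(+/-) replicate 1, had the lowest Apoe level of its genotype, 1359 CPM. Without those 4 libraries Apoe was at -0.48 in zQ175 against WT (edgeR, unadjusted p = 9.03e-05, adjusted p = 0.496), the groups still did not overlap, and the pooled difference was -0.46 (adjusted p = 0.0146). Left out alone, WT replicate 3 took the adjusted p of Apoe in zQ175 against WT to 0.155 and zQ175 replicate 5 to 0.106, and a fit of only the WT and zQ175 mice gave 0.145.

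The upstream 250 bases of Apoe on the minus strand of chromosome 7 are shown as those of the gene with the clearest difference; the windows of Apoe held none of the 4 motifs searched, which says only that these letters are not there.
Apoe, chr7:19699189-19699438: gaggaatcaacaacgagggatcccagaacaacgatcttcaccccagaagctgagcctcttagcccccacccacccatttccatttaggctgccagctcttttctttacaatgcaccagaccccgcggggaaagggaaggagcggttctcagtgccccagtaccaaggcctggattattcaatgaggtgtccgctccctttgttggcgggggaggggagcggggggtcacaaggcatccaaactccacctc

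Cyp46a1, the neuronal enzyme that turns cholesterol into 24S-hydroxycholesterol for removal from the brain, was at 115, 141, 117, 93.1 and 102 CPM in WT and at 90.0, 87.7, 82.3, 106 and 92.5 CPM in zQ175 mice. It was at 119, 132 and 145 CPM in CK2a'(+/-) and at 108, 90.2, 99.5, 113 and 109.6 CPM in zQ175:CK2a'(+/-) mice. The 3 CK2a'(+/-) mice lay above all mice with the zQ175 allele, whereas WT and zQ175 mice overlapped. Pooled over CK2a' genotype the zQ175 allele gave -0.33 ± 0.08 for Cyp46a1 (edgeR, adjusted p = 0.0268). Against WT alone the zQ175 mice differed by -0.31 ± 0.10 (edgeR, adjusted p = 0.169, DESeq2 adjusted p = 0.0981), and zQ175:CK2a'(+/-) against CK2a'(+/-) gave -0.35 ± 0.12 (adjusted p = 0.277). The pooled call of Cyp46a1 was lost without CK2a'(+/-) replicate 3 (-0.29, adjusted p = 0.11) and without the 4 libraries rich in choroid plexus markers (-0.33, adjusted p = 0.161). Its RefSeq promoter on the plus strand, shown as that of the remaining called gene, holds 1 CCAAT box on the opposite strand, at -153.
Cyp46a1, chr12:108334066-108334315: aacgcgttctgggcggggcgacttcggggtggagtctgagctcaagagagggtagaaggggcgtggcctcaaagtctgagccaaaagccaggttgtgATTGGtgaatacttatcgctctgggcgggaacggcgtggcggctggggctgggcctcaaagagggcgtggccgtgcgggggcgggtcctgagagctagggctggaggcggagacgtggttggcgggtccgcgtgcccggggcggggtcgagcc

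The 2 liver X receptors sense oxysterols and switch on Abca1, Abcg1 and Apoe in many cells. Nr1h2, the widely expressed form, was at 30.9, 36.0, 40.2, 31.2 and 35.5 CPM in WT, 30.9, 29.3, 29.6, 33.3 and 29.8 CPM in zQ175, 31.3, 31.1 and 26.5 CPM in CK2a'(+/-) and 34.2, 32.9, 35.7, 40.0 and 36.2 CPM in zQ175:CK2a'(+/-) mice. The means of both genotypes with a single change lay below the WT mean, with overlap, and the mean of the mice with both changes lay just above it. The log2 fold change of Nr1h2 was -0.18 ± 0.09 in zQ175 against WT (edgeR, adjusted p = 0.362), -0.23 ± 0.10 in CK2a'(+/-) against WT (adjusted p = 0.999) and 0.27 ± 0.10 in zQ175:CK2a'(+/-) against CK2a'(+/-) (adjusted p = 0.385). Its interaction, 0.46 ± 0.14, had the lowest unadjusted p of the 34 genes (edgeR, unadjusted p = 0.00313) but an adjusted p of 0.811.

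Nr1h3, the form of macrophages and liver, was near the limit of this depth, with 14 to 81 counts per library. It was at 2.64, 3.57, 1.84, 1.82 and 3.61 CPM in WT, 2.02, 2.32, 2.09, 0.923 and 2.58 CPM in zQ175, 2.22, 2.10 and 3.00 CPM in CK2a'(+/-) and 3.60, 2.08, 2.27, 4.30 and 3.25 CPM in zQ175:CK2a'(+/-) mice. The estimate in zQ175 against zQ175:CK2a'(+/-) was -0.64 ± 0.30 (edgeR, adjusted p = 0.773), with overlap. The exporters Abca1, Abcg1 and Abcg4, which load sterol onto lipoproteins, were not called in any comparison, and none had an unadjusted p under 0.05. Abca1 ranged from 66.9 to 112 CPM over all mice and differed by 0.08 in zQ175 and by 0.25 in zQ175:CK2a'(+/-) mice against WT, Abcg1 by -0.12 and 0.00, and Abcg4 by 0.21 and 0.12, with no adjusted p below 0.456 by edgeR in these 2 comparisons.

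Levels of several lists of cell type markers also differed between genotypes. The sum of 10 oligodendrocyte markers ranged from 3827 to 5743 CPM in zQ175 mice and from 5866 to 8067 CPM in WT mice, without overlap, and 6 of the 10 were called lower. It was 6103 to 7670 CPM in CK2a'(+/-) and 4383 to 5914 CPM in zQ175:CK2a'(+/-) mice. The 9 striatal projection neuron markers summed to 1460 to 2926 CPM in zQ175 and 2678 to 6411 CPM in WT mice, with 3 of the 9 called lower in zQ175 and 7 of the 9 in the pooled test. Their sum was 4529 to 6432 CPM in CK2a'(+/-) and 2405 to 3430 CPM in zQ175:CK2a'(+/-) mice, without overlap. In that comparison all 9 were lower by estimate (median -0.78), 2 of them called and 7 with an unadjusted p under 0.05. The oligodendrocyte sums did not overlap there either, with 7 of the 10 markers lower by estimate (median -0.18) and 2 called (4 by DESeq2). Astrocyte sums were also apart, at 4005 to 4525 CPM in CK2a'(+/-) and 3385 to 3720 CPM in zQ175:CK2a'(+/-) mice. Of the 8 astrocyte markers 5 were lower by estimate (median -0.22) and none was called. Cyp46a1 did not overlap between these groups, nor did 8.34% of all genes. In the pooled test 5 of the 10 oligodendrocyte markers were called lower. The 8 astrocyte markers were all lower by estimate in zQ175 against WT, with a median of -0.17 and none called by edgeR or DESeq2 (unadjusted p under 0.05 for 1), while 2 were called lower in the pooled test, and their sum ranged from 3113 to 3678 CPM in zQ175 and from 3268 to 4562 CPM in WT mice. Of 8 microglia markers tested 1 was called lower in zQ175 mice, and their sum ranged from 175 to 235 CPM against 215 to 251 CPM in WT. Endothelial markers ranged from 98.0 to 133 CPM against 91.1 to 121 CPM and oligodendrocyte precursor markers from 109 to 133 CPM against 118 to 138 CPM, with none called by edgeR or DESeq2 (unadjusted p under 0.05 for 1 marker of each list). The 6 cortical markers were all higher by estimate in zQ175 against WT mice, with a median of 1.62, an unadjusted p under 0.05 for all 6 and 1 called (2 by DESeq2), and their sums, given above, did not overlap. Of 5 choroid plexus markers none was called in that comparison by edgeR (unadjusted p under 0.05 for 3, DESeq2 called 1). In zQ175 against zQ175:CK2a'(+/-), where Npc2 had its largest difference, no marker of these lists was called by edgeR, DESeq2 called 3 cortical markers higher and 1 choroid plexus marker lower, and by edgeR an unadjusted p under 0.05 was found for 6 of 10 oligodendrocyte markers (median -0.28), 5 of 8 microglia markers (median -0.26) and 2 of 8 astrocyte markers (median -0.05), all lower, for 4 of 5 choroid plexus markers, lower, and for 5 of 6 cortical markers (median 1.84), higher. The part of these cell types in the lower Apoe, Npc2 and Cyp46a1 was not tested. The estimate for Apoe, -0.62, lay below the range of the 8 astrocyte markers, whose lowest was -0.50, and within those of the oligodendrocyte markers, -0.67 to -0.15, the microglia markers, -0.64 to -0.02, and the projection neuron markers, -1.12 to -0.27.

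**Figure D5:**
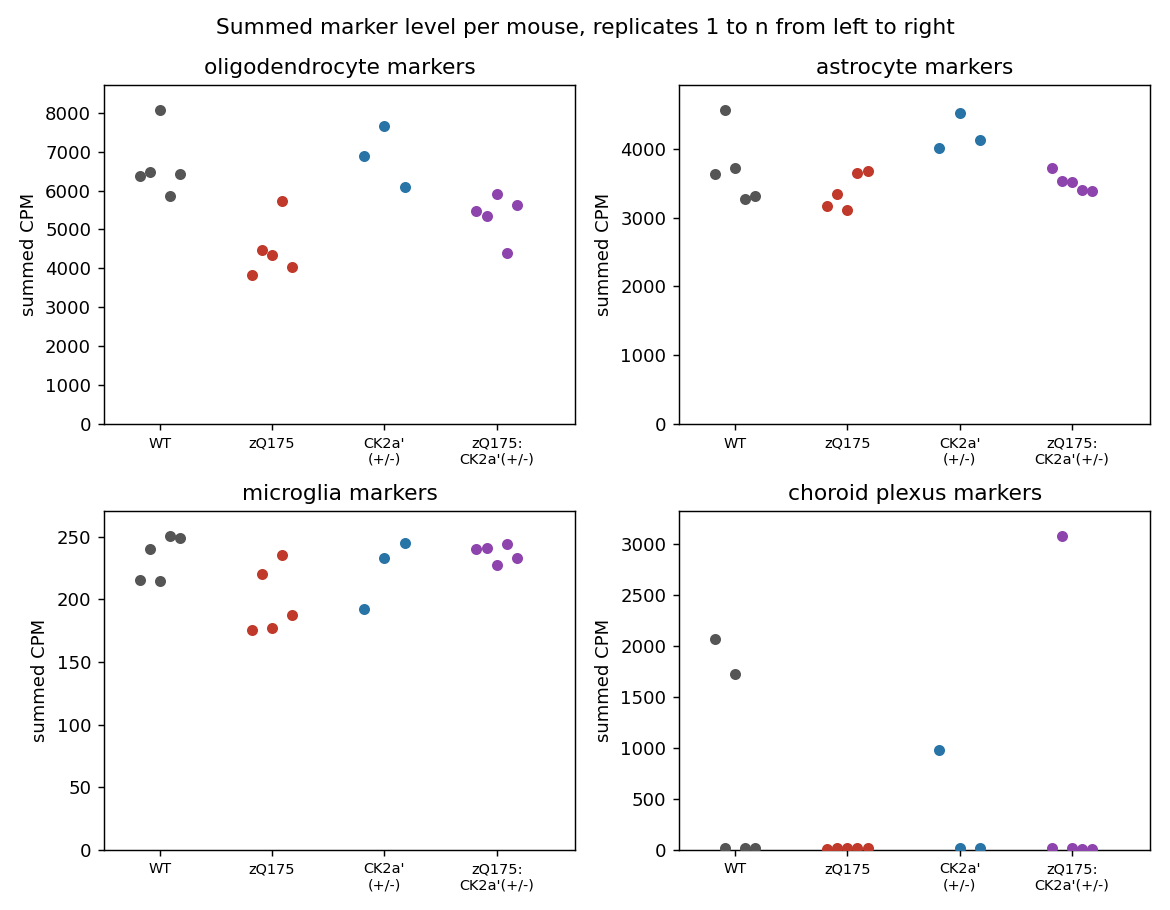
Summed CPM of oligodendrocyte, astrocyte, microglia and choroid plexus markers in each mouse by genotype. The oligodendrocyte sums of zQ175 mice (3827 to 5743 CPM) lie below those of WT mice (5866 to 8067 CPM), and 4 libraries stand apart for choroid plexus markers.

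Beyond the 34 genes, 67 further genes of the pathway were examined in 7 lists. In zQ175 against WT mice 2 of the 67 were called (1.1% of all genes) and 11 had an unadjusted p under 0.05 (13.9% of all genes). The 2 were apolipoproteins and both lower, Clu by -0.41 ± 0.09 (edgeR, adjusted p = 0.0613) and Apoc1, a neighbour of Apoe in the genome, by -1.52 ± 0.39 (adjusted p = 0.0902). They belong to a list of 10 lipoprotein receptors and apolipoproteins with a median of -0.08. In the pooled test 3 of the 67 were called, a share near the 4.9% of all genes called in that test, and 20 had an unadjusted p under 0.05, 6 higher and 14 lower (16.2% of all genes). Clu was lower (-0.36 ± 0.07, edgeR adjusted p = 0.012), as was Mbtps1, the site-1 protease that frees SREBP (-0.32 ± 0.07, adjusted p = 0.0221), and the transporter gene Abca8a was higher (0.27 ± 0.08, adjusted p = 0.0753). None of the 14 genes of the isoprenoid branches, 5 of esterification and lysosomal release, 11 sterol transport proteins or 11 fatty acid targets of SREBP1 was called in either comparison by edgeR; in zQ175 against WT an unadjusted p under 0.05 was found for 1, 1, 2 and 1 of them, and in the pooled test for 1, 2, 3 and 5, the last being 1 higher and 4 lower of the 11 fatty acid targets. DESeq2 called 1 of these genes in the first comparison (Stard3, lower) and 2 in the pooled test (Nceh1 and Acaca, both higher), named here after the values were seen. None of the 67 was called in the other 5 comparisons by edgeR, where an unadjusted p under 0.05 was found for 11 in zQ175:CK2a'(+/-) against WT (9.13% of all genes), 3 in zQ175 against zQ175:CK2a'(+/-) (6.27%), 2 in CK2a'(+/-) against WT (4.48%), 6 in zQ175:CK2a'(+/-) against CK2a'(+/-) (9.19%) and 2 for the interaction (5.39%). DESeq2 called 2 of the 67 in zQ175:CK2a'(+/-) against CK2a'(+/-), Mbtps1 lower and Abca8a higher, and 0 in the other 4.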

How the data were processed

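RNA of 18 mouse striata was sequenced as paired 50-base reads from a stranded total RNA kit. Per the labels and the study's methods the authors used Trimmomatic for trimming and HISAT2 2.1.0 for alignment to GRCm38, kept uniquely aligned reads without duplicates and counted them per gene with Subread 1.6.2, and the deposited table holds whole-number counts, not normalized. Genes with near-identical copies could be undercounted, which was not measured; the strand setting is not given in the sources used here. Libraries held 13612381 to 22702547 counts, of which 16.2 to 23.3% were mitochondrial ribosomal RNA.

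The counts were tested with edgeR 4.0.16 in R 4.3.3 (TMM, filterByExpr, quasi-likelihood, 1 fit of all libraries by genotype, Benjamini-Hochberg over 20914 genes, threshold 0.1), with DESeq2 1.42.0, the study's own tool, as an alternative. SE is the log2 fold change divided by the square root of F. Both tools were tested on simulated data. Values in every mouse are given for members called in any comparison, for the 2 members of each role with the smallest p in zQ175 against WT and the 2 in zQ175 against zQ175:CK2a'(+/-), and for Srebf2, Cyp46a1, Apoe, Npc1 and Npc2; other pathway genes are named only where called. Levels between genes are CPM per kilobase of summed exons. The pathway, its members and the other lists were chosen with earlier results of these data known. Alternatives were DESeq2, its size factors in edgeR, no count filter, only the groups compared, a replicate block, the Xist level as a covariate for sex, a robust fit, a threshold of 0.05, leaving out each mouse and, added after seeing the data, leaving out 4 libraries rich in choroid plexus markers.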

Additional observations from a re-analysis of the deposited data

Results flagged for a closer look

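In 102 groups of 5 mice (34 genes in 3 genotypes) the highest or lowest mouse stood apart from the rest by Dixon's criterion 4 times, where chance gives about 1 in 20. Cyp51 was at 40.1 CPM in zQ175 replicate 1, with the next zQ175 mouse at 26.8 CPM. Sc5d was at 42.0 CPM in the same mouse, with the next at 31.5 CPM. Srebf1 was at 72.1 CPM in WT replicate 5, with the next at 55.9 CPM, and Abca1 was at 88.2 CPM in zQ175:CK2a'(+/-) replicate 4, below 107.8 CPM in the next.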

How the results depend on the processing

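The number of the 34 genes called in zQ175 against WT, 2 by edgeR, was 3 with DESeq2, 2 with a robust fit, 1 (Apoe) with DESeq2 size factors, with no filter on low counts, with the Xist level as a covariate or at a threshold of 0.05, and 0 with only the groups compared or without the 4 libraries rich in choroid plexus markers. Leaving out 1 mouse gave 0 to 2, with 0 without WT replicate 3 and without zQ175 replicate 5. In zQ175:CK2a'(+/-) against WT, 0 became 1 (Apoe) with DESeq2 and with no filter, and leaving out 1 mouse gave 0 to 1, with 1 without WT replicate 2. In zQ175 against zQ175:CK2a'(+/-), 0 became 1 (Npc2) with DESeq2, and in zQ175:CK2a'(+/-) against CK2a'(+/-), 0 became 1 (Cyp46a1, adjusted p = 0.0825) with only the groups compared. The pooled count of 2 was 1 (Apoe) without the choroid plexus libraries and 1 to 2 when 1 mouse was left out, with 1 without CK2a'(+/-) replicate 3. The counts in CK2a'(+/-) against WT and for the interaction were 0 under each of these alternatives. The causes of these changes were not tested. Apoe in CK2a'(+/-) against WT turned from -0.11 to 0.11 without the choroid plexus libraries, and Srebf2 in zQ175 against WT ranged from -0.046 to 0.080 when 1 mouse was left out. With 5 mice or fewer in a group and 7 to 93 counts per library, Fdps was the gene least able to show a difference.

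Replicate numbers did not pair the mice: deviations of 24 same-numbered pairs correlated from -0.136 to 0.12, with 2 above 0.1. With the replicate block 1 gene (Apoe) was called in zQ175 against WT, with Apoe at -0.62 (adjusted p = 0.0905) and Npc2 at -0.42 (adjusted p = 0.132), and no other count of calls among the 34 genes changed.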
